A study of Mus musculus with 14 samples.

Results

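The myometrium, the smooth muscle wall of the uterus, was followed through 35 genes of its contractile apparatus in whole uteri of mice in early pregnancy. The genes were taken as a named list, and each was read through the probe sets that the platform annotation assigns to that 1 gene symbol. All 35 genes were found, through 81 of the 45037 probe sets that are not controls. Of these 81 probe sets, 64 were among the 22519 probe sets, for 11269 genes, whose mean signal over the arrays lay at or above the median of all probe sets. Every one of the 35 genes kept at least 1 probe set, and each gene is reported through its brightest one, with 29 further probe sets of the same genes as a cross-check.

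Smooth muscle contracts when calcium entering through voltage-gated channels, or released from internal stores, binds calmodulin and turns on myosin light chain kinase, which phosphorylates the regulatory light chain so that myosin can pull on actin. A phosphatase reverses this step, potassium channels quiet the membrane, and gap junctions and the oxytocin receptor couple and drive the muscle at birth. Many of the genes are switched on by serum response factor (Srf) with its coactivator myocardin (Myocd), through a DNA element called the CArG box.

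The series holds 14 one-colour Affymetrix arrays, each of 1 uterus sample taken at 3.5 days of gestation, the morning of the vaginal plug being counted as day 0.5. The females were C57BL/6, wild type or Folr4-/-, that is with both copies of Folr4 mutated (called mutants here), all on a chow diet. The saline groups were 4 wild-type and 3 mutant samples. The folinic acid groups were 3 wild-type and 4 mutant samples. Folinic acid, a reduced form of folate, had been injected into the peritoneum 2 times at 12.5 mg/kg, 10 and 3 days before mating. The mutation is present in every cell of the mutants, so that an effect on the uterine muscle itself and an effect through another tissue or the ovary cannot be told apart. The submitters label the replicates as biological. The sample titles carry a number that wild-type saline replicates 2 and 3 share and another that wild-type folinic acid replicates 1 and 2 share, and the labels do not say what it stands for. In this whole tissue, fewer smooth muscle cells and less RNA per cell cannot be told apart.

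Signals are given on the linear scale of the deposited values, where every array has the same trimmed mean. Differences are on the log2 scale with the standard error of a limma fit over all 14 arrays, and adjusted p-values are Benjamini-Hochberg values over the 22519 probe sets. Signals of different probe sets are not compared with each other, since probes differ in brightness. The median signal of an array lay between 129 and 157, the actin control ratio of 3-prime to 5-prime signal, a measure of RNA integrity, between 1.54 and 3.64, and the Gapdh ratio between 1.14 and 2.48. Folr4 itself was dim in this tissue, with signals from 13.5 to 72.4 (median 46.9) in the 7 wild-type arrays and from 6.14 to 70.2 (median 11.4) in the 7 mutant arrays. The median was lower in the mutants, as labelled, but the ranges overlapped, so single arrays could not be checked from it.

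The label of the list was checked against muscle of other kinds. Of 18 markers of skeletal and cardiac muscle, 4 (Acta1, Actc1, Tnni2 and Tnnt2) passed the filter, and Ckm, Mb, Myh1, Myh2 and Myh4 were among the 14 below it. Genes of the list that vascular muscle also uses, such as Acta2, Tagln and Myh11, cannot be assigned to the myometrium alone. Whether the other genes of the list are particular to the myometrium was not tested.

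The regulatory sequence these genes are known for was looked up in RefSeq promoters of build GRCm38.p6, which were found for 31 of the 35 genes. None was found for Tagln, Myh11, Actg2 and Myocd. The CArG box was searched in the 250 bases before each start site, as CC, a core of 6 A or T bases and GG; it reads the same on both strands. It was found in 5 of the 31 genes (16.1%) and in 439 of 27025 genes with a promoter in the table (1.62%). When 1 C or G was allowed in the core, 10 of the 31 genes (32.3%) and 2643 of all genes (9.78%) held a match. The stretches below are shown because they carry the boxes of the actin gene, of the Srf gene itself, and of the myosin light chain and dense body genes that are described later. Capitals mark the matches, and lower case the bases around them.
Acta2: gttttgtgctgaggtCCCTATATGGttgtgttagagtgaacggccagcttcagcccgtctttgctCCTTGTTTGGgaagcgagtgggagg
Srf: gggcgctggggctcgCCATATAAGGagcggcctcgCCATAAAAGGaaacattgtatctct
Myl9: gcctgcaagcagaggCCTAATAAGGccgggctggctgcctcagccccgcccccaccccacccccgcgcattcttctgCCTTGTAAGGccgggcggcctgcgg
Myl6: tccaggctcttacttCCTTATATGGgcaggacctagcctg
Vcl: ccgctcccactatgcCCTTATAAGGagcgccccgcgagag
Ldb3: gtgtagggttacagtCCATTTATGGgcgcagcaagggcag
The Acta2 stretch lies at chr19:34255383-34255472 on the minus strand, with matches that begin 84 and 34 bases before the start site, both of them with 1 C or G in the core. The Srf stretch, at chr17:46556200-46556259 on the minus strand, has strict matches that begin 82 and 62 bases upstream. In Myl9 (chr2:156775288-156775389, plus strand) the strict match begins 161 bases upstream and one with a G in its core 99 bases upstream. Single strict matches begin 50 bases upstream of 1 start site of Myl6 (chr10:128493035-128493074, minus strand) and 227 bases upstream in Vcl (chr14:20929156-20929195, plus strand). Another begins 35 bases upstream of 1 start site of Ldb3 (chr14:34588692-34588731, minus strand). The other start site of Myl6 had no match in the bases searched. The matches describe these letters only, and binding was not measured.

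None of the 35 genes passed an adjusted p of 0.05 in any of the 7 comparisons. For folinic acid in the mutants, the signals of Oxtr, Kcnma1, Cacna1c and Mrvi1 were higher in all 4 treated than in all 3 saline samples, by 1.29, 0.85, 0.69 and 0.44 on the log2 scale. These are 4 of the 35 genes, and 10.3% of all probe sets had groups that did not overlap there. With the level of the 200 brightest probe sets as a covariate, the Kcnma1 difference was -0.35, but the saline and treated mutants did not overlap in that level. Acta2 and Tpm2 were lower in the treated mutants, by -0.52 and -0.40 (unadjusted p = 0.0144 and 0.0411 in the limma fit), but at 0.15 and 0.0045 after quantile normalization. The smallest adjusted p among the 35 there was 0.234. What the genes shared was their variation from array to array within the groups, which reached across nearly the whole list and is described after the roles.

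**Figure D1:**
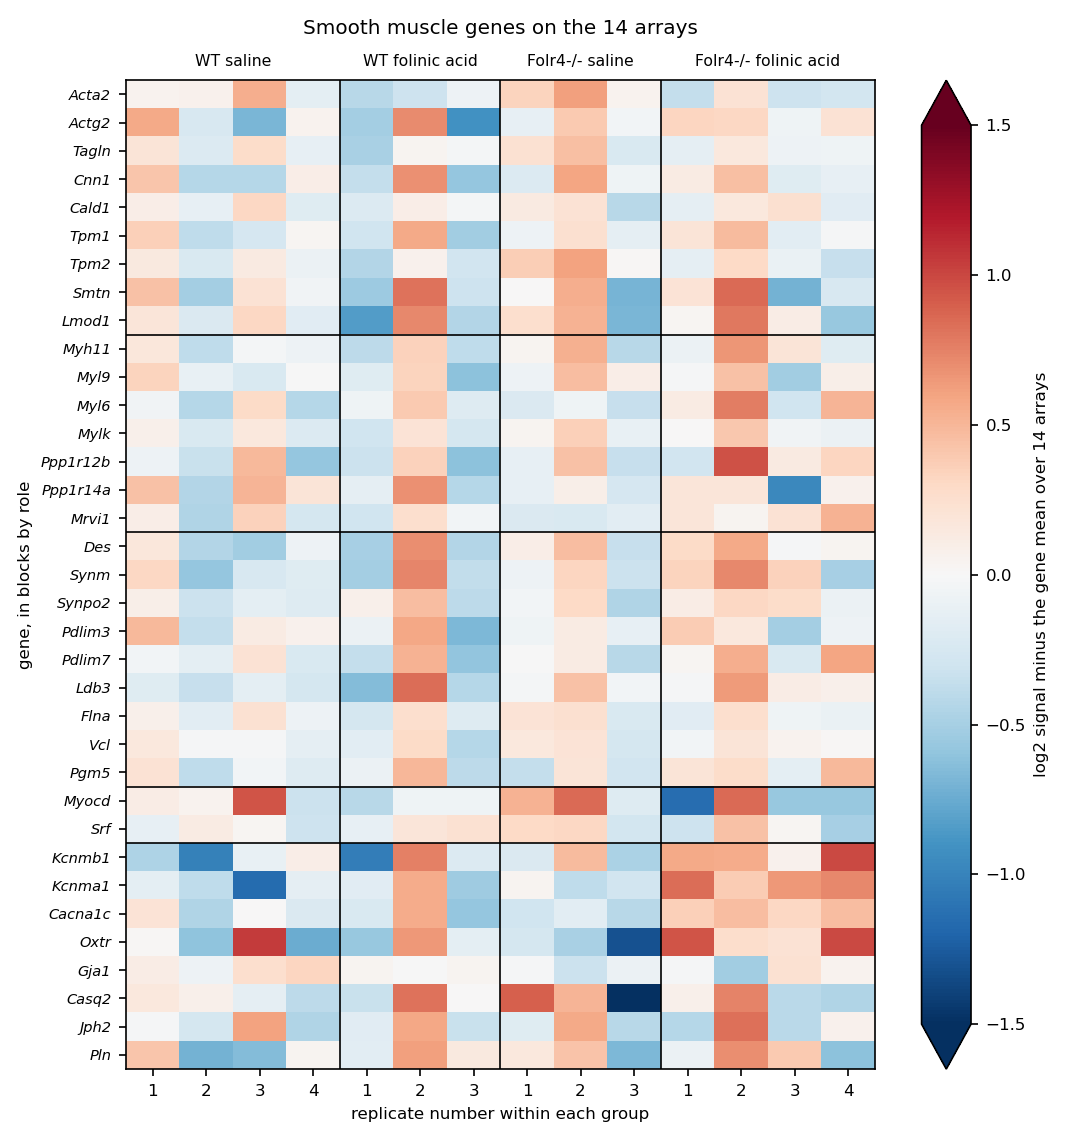
The colour gives the log2 signal of each gene on each array minus that gene's mean over the 14 arrays, with rows in blocks by role (thin filament, myosin, dense bodies, transcription, channels and calcium store) and columns by group and replicate. Whole columns are red or blue together: wild-type folinic acid replicate 2 had 32 of 35 genes above their own mean and mutant folinic acid replicate 2 had 34, against 2 in wild-type folinic acid replicate 1 and 3 in mutant saline replicate 3.

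The thin filament was represented by 9 genes. Acta2 encodes smooth muscle alpha-actin, the actin on which smooth muscle myosin pulls. Its signals were 43568, 43723, 61055 and 38047 in the wild-type saline samples and 31556, 33943 and 39899 after folinic acid. In the mutants they were 52921, 64522 and 43413 with saline and 32656, 48922, 33819 and 34771 with folinic acid. The folinic acid samples lay toward the low end in both genotypes, and in neither were they clear of the saline samples. The difference was -0.39 ± 0.19 (SE) in the wild type (unadjusted p = 0.0530), -0.52 ± 0.19 in the mutants (unadjusted p = 0.0144, limma adjusted p = 0.280) and -0.45 ± 0.13 averaged over genotypes (unadjusted p = 0.00363, limma adjusted p = 0.238). After quantile normalization, which gives all arrays one distribution, the values were -0.03, 0.15 and 0.06, so the direction in the mutants and in the average turned. The probe set is of a kind that can match several transcripts, and the actins are close relatives. A second, dimmer Acta2 probe set differed by 0.11 ± 0.40 in the mutants.

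Tpm2, beta-tropomyosin, which winds along the actin filament, had a similar profile. Its signals were 27178, 21080, 27023 and 23260 in wild-type saline, 18121, 25725 and 20178 in wild-type folinic acid, 31746, 37304 and 24967 in mutant saline, and 22468, 30283, 22966 and 19343 in mutant folinic acid samples. The highest 2 values of the 14 were both mutant saline samples, but the groups overlapped. Folinic acid minus saline was -0.40 ± 0.18 in the mutants (unadjusted p = 0.0411, limma adjusted p = 0.367) and -0.31 ± 0.13 on average (unadjusted p = 0.0282), and both were near 0 after quantile normalization, at 0.0045 and 0.01. Of 3 further probe sets of Tpm2, 2 were also lower in the treated mutants, by -0.21 ± 0.23 and -1.01 ± 0.41, and 1 was higher by 0.30 ± 0.35.

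The 200 brightest probe sets include those of Acta2, Tagln and Tpm2. The mean deviation of the 200 brightest probe sets lay between 0.27 and 0.43 on the mutant saline arrays, between -0.02 and 0.21 on the wild-type saline arrays, between -0.34 and 0.07 on the wild-type folinic acid arrays and between -0.31 and -0.03 on the mutant folinic acid arrays. Within groups it correlated with Acta2 at r = 0.76 over the 14 arrays, with Tagln at 0.37 and with Tpm2 at 0.25. With this level as a covariate, the folinic acid difference in the mutants was 0.24 for Acta2 and -0.16 for Tpm2. The saline and treated mutants did not overlap in this level, so differences adjusted for it extrapolate the slope within groups.

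Actg2 encodes the gamma-actin of visceral muscle. Its signals were 8536, 4857, 3587 and 5992 in wild-type saline and 4041, 9379 and 3071 in wild-type folinic acid samples. In the mutants they were 5278, 7525 and 5613 with saline and 7191, 7122, 5516 and 6679 with folinic acid. The mutant values lay inside the wild-type range, with differences from -0.16 to 0.43 over the 4 pairwise comparisons. Cnn1, calponin, which binds actin and damps myosin's motor activity, ran closely with Actg2. Its signals were 7039, 3923, 3896 and 5641 in wild-type saline, 4113, 8434 and 3530 in wild-type folinic acid, 4582, 7900 and 5026 in mutant saline, and 5734, 7194, 4646 and 4819 in mutant folinic acid samples. Each group spanned more than the distance between groups.

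Tagln, transgelin, an actin-binding protein used as an early marker of smooth muscle, read 29714, 22485, 31402 and 23681 in wild-type saline and 18457, 26535 and 25326 in wild-type folinic acid samples. With saline the mutants read 30407, 35352 and 22098, and with folinic acid 23626, 28878, 24644 and 24696. Folinic acid differed from saline by -0.18 in the mutants, a value that became 0.25 after quantile normalization. The other 4 genes of the thin filament, the tropomyosin Tpm1, caldesmon (Cald1), smoothelin (Smtn) and leiomodin (Lmod1), differed by between 0.05 and 0.11 in that comparison, with each group overlapping its counterpart. Among treated animals, all 9 genes were higher in the mutants, with a median of 0.15, and none at an unadjusted p under 0.05.

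The myosin motor and its phosphorylation were represented by 7 genes. Myh11, the smooth muscle myosin heavy chain, read 14204, 9646, 12360 and 11988 in wild-type saline and 9579, 16087 and 9686 in wild-type folinic acid samples. In the mutants it read 12934, 18323 and 9422 with saline and 11848, 20003, 14390 and 11155 with folinic acid. High and low values fell within the same groups, and its 4 pairwise differences lay between -0.06 and 0.29. Myl9, the regulatory light chain that carries the activating phosphate, read 21937, 16113, 14866 and 17429 in wild-type saline, 15425, 21916 and 11429 in wild-type folinic acid, 16605, 24015 and 18652 in mutant saline, and 17220, 23584, 12172 and 18579 in mutant folinic acid samples. No group of Myl9 stood clear of another.

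Mylk, the light chain kinase, varied least of the motor genes within groups, with an SD of 0.24 on the log2 scale. It read 18673, 15159, 19889 and 15354 in wild-type saline and 14438, 20515 and 14841 in wild-type folinic acid samples, and 18264, 22834 and 16388 in mutant saline and 17760, 23472, 17134 and 16641 in mutant folinic acid samples. The Mylk difference after folinic acid in the mutants was -0.03, with a 95% interval drawn in the plot of folinic acid differences. Myl6, the essential light chain, was 0.48 higher in that comparison (unadjusted p = 0.0650) and Ppp1r12b, a targeting subunit of myosin phosphatase, 0.29, both with overlapping groups. Ppp1r14a, an inhibitor of that phosphatase, read 2843, 1544, 2987 and 2403 in wild-type saline, 1910, 3362 and 1564 in wild-type folinic acid, 1922, 2227 and 1766 in mutant saline, and 2386, 2388, 1069 and 2188 in mutant folinic acid samples. Mutant folinic acid replicate 3, at 1069, was the lowest of the 14.

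Mrvi1 encodes a partner of the inositol trisphosphate receptor through which nitric oxide and cGMP restrain calcium release. Its signals were 4244, 2891, 5016 and 3274 in wild-type saline and 3197, 4694 and 3824 in wild-type folinic acid samples. In the mutants they were 3386, 3379 and 3549 with saline, and 4460, 4070, 4580 and 5683 with folinic acid. The 3 mutant saline samples lay close together, and all 4 treated mutants lay above them, inside or just above the wild-type range. The difference was 0.44 ± 0.19 (unadjusted p = 0.0338, limma adjusted p = 0.346), and a second Mrvi1 probe set gave 0.45 ± 0.18.

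Intermediate filaments, dense bodies and adhesion plaques anchor the filaments and pass force to the membrane, and 9 genes stood for them. Des, desmin, the intermediate filament of muscle, read 6077, 4008, 3784 and 5132 in wild-type saline, 3839, 8809 and 3992 in wild-type folinic acid, 5786, 7492 and 4271 in mutant saline, and 6639, 8058, 5360 and 5591 in mutant folinic acid samples. All 9 genes were higher in the mutants under folinic acid, by 0.05 to 0.38 with a median of 0.19, and none of these passed even an unadjusted p of 0.05. Ldb3, a PDZ and LIM domain protein that binds alpha-actinin, was the only one of the 35 whose saline groups did not overlap: 200, 178, 204 and 188 in the wild type against 221, 306 and 220 in the mutants, a difference of 0.36 (unadjusted p = 0.255). The rest of this group, Synm, Synpo2, Pdlim3, Pdlim7, Flna, Vcl and Pgm5, differed by between -0.10 and 0.15 under saline.

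The regulators Myocd and Srf were both measured above the filter. Myocd read 2044, 1956, 3613 and 1511 in wild-type saline and 1416, 1804 and 1804 in wild-type folinic acid samples, and 2714, 3400 and 1655 in mutant saline and 853, 3404, 1267 and 1267 in mutant folinic acid samples. The treated mutants held both the lowest value of the 14 and one of the highest, and the difference of -0.76 there had an unadjusted p of 0.0721. It was -0.76 after quantile normalization and 0.72 with the level of the 200 brightest probe sets as a covariate. Srf read 1289, 1530, 1437 and 1138 in wild-type saline, 1295, 1595 and 1649 in wild-type folinic acid, 1732, 1750 and 1159 in mutant saline, and 1137, 1914, 1435 and 994 in mutant folinic acid samples. The Srf groups overlapped throughout, with a difference of -0.20 in the treated mutants.

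The membrane, coupling and calcium store genes were 8 in all, and 3 of them (Oxtr, Kcnma1 and Cacna1c) had the smallest p among the 35 for folinic acid in the mutants. Oxtr, the receptor for oxytocin, which drives contraction at birth, read 494, 321, 1007 and 290 in wild-type saline and 327, 762 and 439 in wild-type folinic acid samples. In the mutants it read 404, 348 and 197 with saline and 936, 583, 564 and 964 with folinic acid. All 4 treated mutants lay above all 3 saline mutants and within the wild-type range. The difference was 1.29 ± 0.41, or 2.44-fold (95% interval of the log2 difference 0.42 to 2.16; unadjusted p = 0.0065, limma adjusted p = 0.234). Leaving out each array in turn gave 0.98 to 1.497. In the wild type the same contrast was 0.04, and the difference between the contrasts, tested as the interaction, was 1.24 ± 0.58 (unadjusted p = 0.0478, limma adjusted p = 0.905). The mutants were lower than the wild type under saline by -0.62 ± 0.41. A second Oxtr probe set lay below the filter.

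Kcnma1 encodes the pore of the large-conductance calcium-activated potassium channel, which repolarizes the muscle membrane. It read 344, 292, 171 and 346 in wild-type saline, 339, 558 and 264 in wild-type folinic acid, 392, 293 and 312 in mutant saline, and 678, 495, 597 and 626 in mutant folinic acid samples. The treated mutants were the highest group, overlapped only by wild-type folinic acid replicate 2. The difference in the mutants was 0.85 ± 0.27, or 1.81-fold (unadjusted p = 0.00707, limma adjusted p = 0.235), that between genotypes under folinic acid 0.69 ± 0.27 (unadjusted p = 0.0230) and the folinic acid difference over both genotypes 0.63 ± 0.19 (unadjusted p = 0.00534, limma adjusted p = 0.269). Within groups, Kcnma1 ran against the level of the 200 brightest probe sets at r = -0.82. With that level as a covariate the difference in the mutants was -0.35. The saline and treated mutants did not overlap in that level, so this value extrapolates the slope within groups. After quantile normalization the difference was 0.80. The other 4 Kcnma1 probe sets were below the filter. Kcnmb1, the channel's smooth muscle beta subunit, was dimmer, at 143, 98, 183 and 212 in wild-type saline, 96, 333 and 171 in wild-type folinic acid, 170, 275 and 142 in mutant saline, and 294, 291, 207 and 393 in mutant folinic acid samples. Its genotype difference under folinic acid was 0.71 ± 0.39 (unadjusted p = 0.0874).

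Cacna1c encodes the pore of the L-type calcium channel, the main entry route for calcium. It read 587, 374, 513 and 438 in wild-type saline and 434, 752 and 341 in wild-type folinic acid samples. In the mutants it read 415, 459 and 383 with saline and 653, 704, 636 and 701 with folinic acid. The treated mutants formed a tight group above every other sample except wild-type folinic acid replicate 2. The difference was 0.69 ± 0.23, or 1.61-fold (unadjusted p = 0.00899, limma adjusted p = 0.249), with 0.62 to 0.75 when arrays were left out in turn and 0.10 with the level of the 200 brightest probe sets as a covariate. The interaction was 0.66 ± 0.32 (unadjusted p = 0.0606). A second Cacna1c probe set, of nearby brightness, did not share the difference, at 0.02 ± 0.23.

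Gja1 encodes connexin 43, the gap junction protein that couples the muscle cells, and is also abundant in the endometrial stroma. It read 7516, 6615, 8315 and 8691 in wild-type saline, 7163, 6948 and 7155 in wild-type folinic acid, 6890, 5556 and 6548 in mutant saline, and 6907, 4842, 8128 and 7250 in mutant folinic acid samples. The saline mutants were lower than the wild type by -0.30 ± 0.16 (unadjusted p = 0.0897), and the groups overlapped. Of 5 further Gja1 probe sets, 4 were lower as well in that comparison, by -0.33 to -0.94, and 1 differed by 0.01.

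The calcium store was represented by calsequestrin 2 (Casq2), junctophilin 2 (Jph2) and phospholamban (Pln). The Casq2 probe set lay only just above the filter, at percentile 50.5 of mean signal. Casq2, which buffers calcium inside the store, read 154, 145, 126 and 105 in wild-type saline, 109, 243 and 138 in wild-type folinic acid, 257, 196 and 47 in mutant saline, and 146, 232, 104 and 101 in mutant folinic acid samples. Jph2, which ties the store to the surface membrane, read 833, 702, 1274 and 615 in wild-type saline, 747, 1255 and 667 in wild-type folinic acid, 744, 1244 and 631 in mutant saline, and 624, 1492, 637 and 878 in mutant folinic acid samples. Pln, the brake on the store's calcium pump, read 650, 299, 311 and 502 in wild-type saline, 436, 745 and 539 in wild-type folinic acid, 545, 655 and 304 in mutant saline, and 460, 792, 638 and 319 in mutant folinic acid samples. In all 3 genes the spread inside a group was wider than the distance between groups, and wild-type folinic acid replicate 2 and mutant folinic acid replicate 2 were high. All 8 genes of the membrane and store were higher in the treated than in the saline mutants, with a median of 0.37, 3 of them at an unadjusted p under 0.05, which 12.8% of all probe sets reached in this comparison. With the level of the 200 brightest probe sets as a covariate, Oxtr was at 1.14, Cacna1c at 0.10 and Kcnma1 at -0.35. The saline and treated mutants did not overlap in that level.

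**Figure D2:**
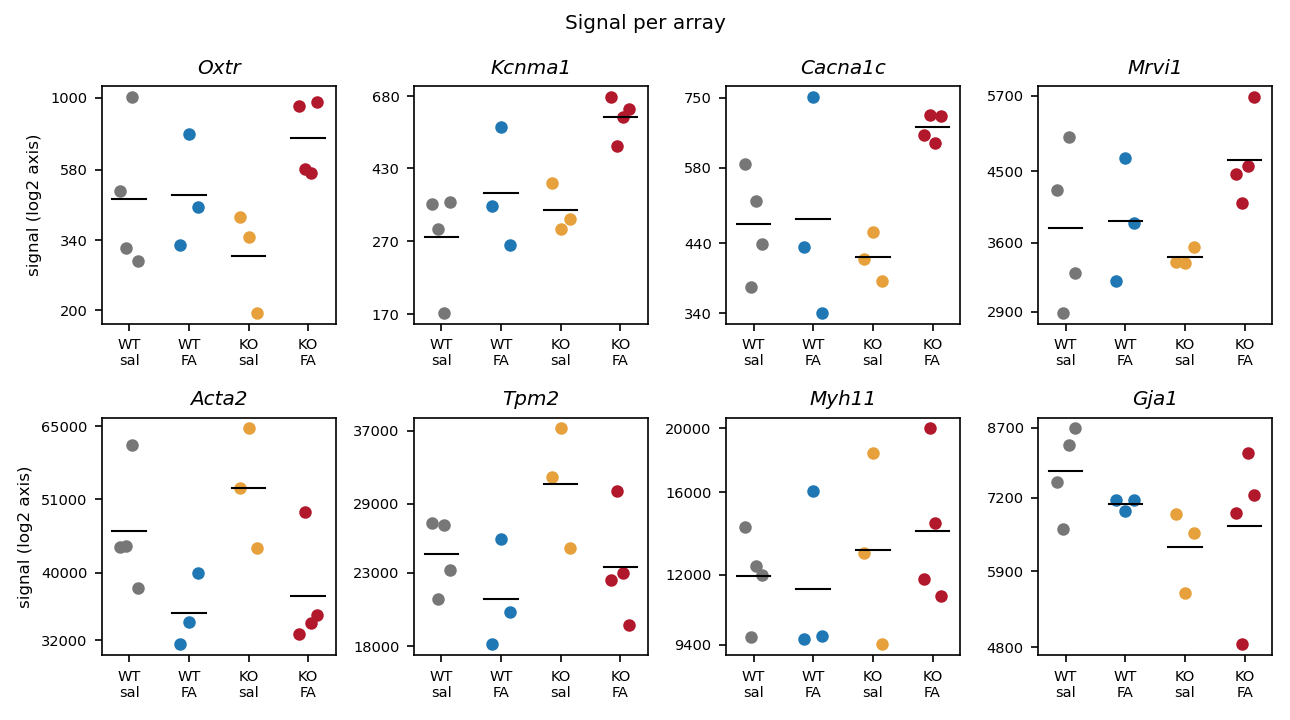
Signal on a log2 axis for 8 genes, 1 point per array, by group (WT, wild type; KO, Folr4-/-; sal, saline; FA, folinic acid), with a line at the geometric mean of each group. The treated mutants sit above all saline mutants for Oxtr (564 to 964 against 197 to 404), Kcnma1, Cacna1c and Mrvi1, while Acta2, Tpm2, Myh11 and Gja1 overlap between these groups.

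Read against the whole table, the counts were as follows. Between genotypes under saline, 24 of the 35 genes were higher in the mutants (median 0.08; 49.4% of all 11269 genes were higher). Adjusted p-values called 0 of the 35 and 0.00444% of all probe sets, unadjusted p-values 0 of the 35 and 3.11%, and 1 gene, Ldb3, had groups that did not overlap, against 4.42%. Under folinic acid, 28 of 35 were higher in the mutants (median 0.16; 46.7% of all genes), with 0 called against 0.00444%, 1 at an unadjusted p under 0.05 (Kcnma1) against 3.81%, and 0 not overlapping against 4.94%. Averaged over injections, 30 of 35 were higher in the mutants (median 0.12; 46.9% of all genes), with 0 called against 0.00444% and 1 at an unadjusted p under 0.05, again Kcnma1, against 2%. The median of the genotype difference depended on single arrays: it was -0.05 under saline without mutant saline replicate 2, and 0.40 under folinic acid without wild-type folinic acid replicate 2, the array with most of the genes high in its group.

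For folinic acid in the wild type, 16 of 35 genes were higher (median -0.04; 53.5% of all genes), 0 were called against 0%, 0 had an unadjusted p under 0.05 against 2.71%, and 0 had groups that did not overlap against 4.96%. This median was 0.14 without wild-type folinic acid replicate 3 and -0.29 without replicate 2. For folinic acid in the mutants, 25 of 35 were higher (median 0.08; 50.2% of all genes), 0 were called against 0%, 6 (4 higher, 2 lower) reached an unadjusted p of 0.05 against 12.8%, and 4 had groups that did not overlap, all higher, against 10.3%. The share among the 35 was thus near that of all probe sets. Without mutant folinic acid replicate 2, 662 probe sets passed the adjusted threshold in this comparison and 0 of the 35 genes did, with Myocd closest at -1.16 (limma adjusted p = 0.0562). The median was -0.11 without mutant saline replicate 3 and 0.31 without mutant saline replicate 2.

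In the interaction, 24 of 35 genes were positive (median 0.12; 48.2% of all genes), 0 were called against 0%, and 1, Oxtr, had an unadjusted p under 0.05 against 4.9%. Its median was -0.07 without mutant saline replicate 3 and 0.40 without wild-type folinic acid replicate 2. For folinic acid averaged over genotypes, 19 of 35 were higher (median 0.02; 52.2% of all genes), 0 were called against 0.00444%, and 5 had an unadjusted p under 0.05 (Oxtr, Kcnma1 and Cacna1c higher, Acta2 and Tpm2 lower) against 9.21%. This median was -0.10 without wild-type folinic acid replicate 2 and 0.14 without mutant saline replicate 2. Over all probe sets the calls in this average numbered 118 without wild-type folinic acid replicate 3 and 150 without mutant folinic acid replicate 2, with 0 of the 35 in either case. The comparisons share arrays, so their counts are not independent of each other. The further probe sets of the same genes had the sign of the reported one in 21 of 29 cases for folinic acid in the mutants, 16 for folinic acid in the wild type and 12 for folinic acid averaged over genotypes. They had it in 22 of 29 cases for genotype under saline, 17 under folinic acid and 14 averaged over injections, and in 21 for the interaction.

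**Figure D3:**
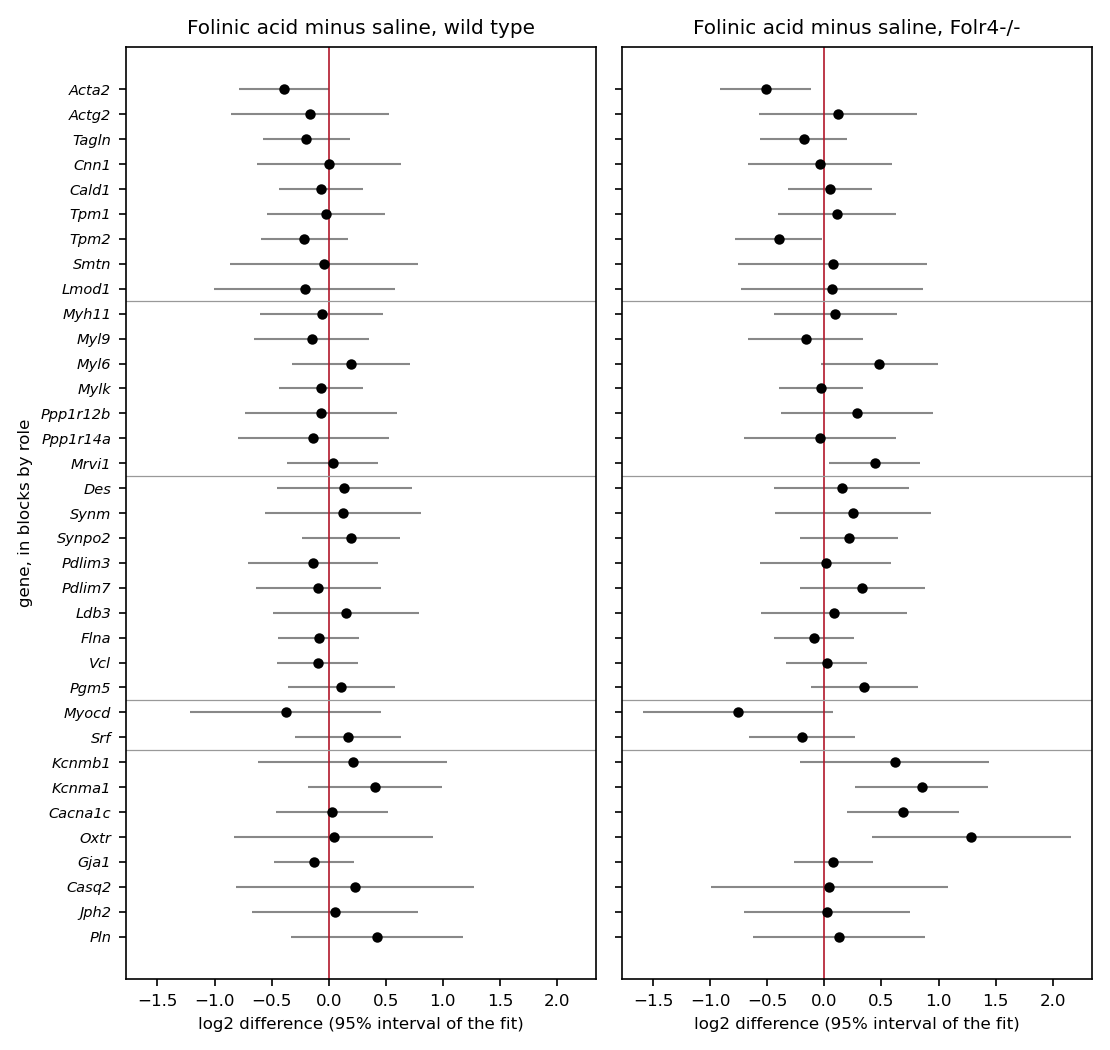
Points give the log2 difference of folinic acid minus saline for each of the 35 genes in wild-type (left) and mutant (right) mice, with the 95% interval of the fit. In the mutants the intervals of Oxtr, Kcnma1, Cacna1c and Mrvi1 lie above 0 and those of Acta2 and Tpm2 below it. None passed after adjustment. Acta2 and Tpm2 were 0.15 and 0.0045 after quantile normalization. Kcnma1 was -0.35 with the level of the 200 brightest probe sets as a covariate. Saline and treated mutants did not overlap in that level.

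The list moved as a block from array to array. Averaged over the 35 genes, the deviation from each gene's own mean ran from -0.34 to 0.44 over the arrays, a 1.72-fold span. Group means were -0.06 ± 0.20 (SD, n = 4) in wild-type saline, -0.07 ± 0.44 (SD, n = 3) in wild-type folinic acid, -0.01 ± 0.31 (SD, n = 3) in mutant saline and 0.12 ± 0.22 (SD, n = 4) in mutant folinic acid samples. The groups thus differed by less than the spread inside them, which was 0.29 pooled. Of the wild-type folinic acid samples, replicate 2 was at 0.44 and replicates 1 and 3 were at -0.33 and -0.32. The log2 actin ratio correlated with the mean of the 35 genes at r = 0.03, the Gapdh ratio at 0.35 and the level of the 200 brightest probe sets at -0.07, over 14 arrays with group means removed. Single genes correlated with the log2 actin ratio in both directions, from -0.65 for Kcnma1 to 0.72 for Cald1.

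**Figure D4:**
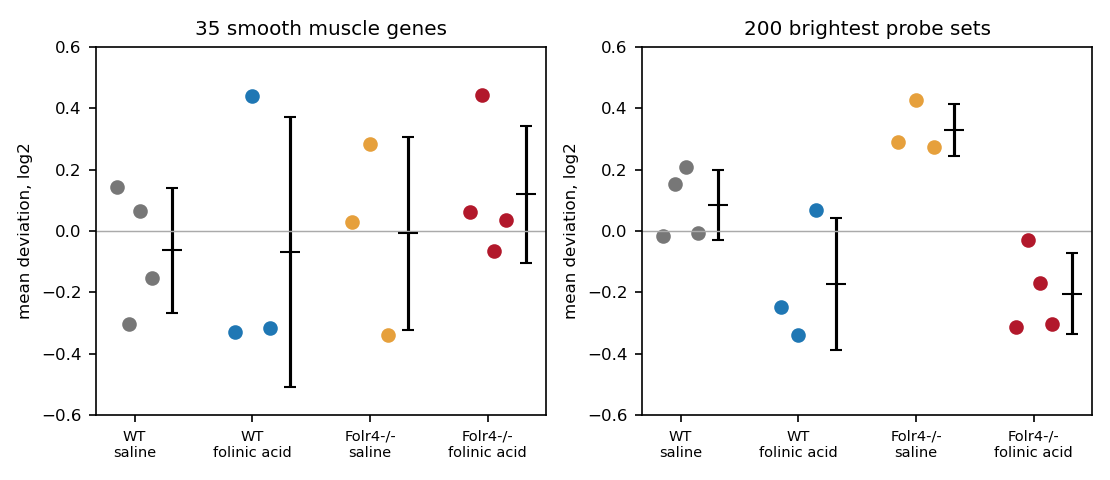
Mean log2 deviation per array, 1 point per array in 4 groups with the mean and SD beside the points, for the 35 smooth muscle genes (left) and the 200 brightest probe sets (right). The smooth muscle mean spreads widely inside each group, from -0.33 to 0.44 in wild-type folinic acid samples, while the brightest probe sets are lower on the folinic acid than on the saline arrays of the mutants (-0.31 to -0.03 against 0.27 to 0.43).

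With the group means removed, the 595 pairs of the 35 genes had a median Pearson r of 0.59 over the 14 arrays (quartiles 0.37 and 0.75), and 63.7% of them were above 0.5. Over all pairs of the 11269 genes the median was 0.0039 and 11.2% were above 0.5. The Spearman median was 0.57. Leaving out each array in turn gave medians between 0.46 and 0.64, the lowest with replicate 2 of wild-type folinic acid left out. These are descriptions, since genes on one array share its RNA, its tissue makeup and its scale.

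The genes most like the rest of the list were Smtn (r = 0.94 with the mean of the other 34), Mylk (0.94), Flna (0.93), Myh11 (0.91) and Tpm2 (0.90). They come from the thin filament, the motor and the adhesion plaques. The closest pairs were Ppp1r12b with Jph2 and Cnn1 with Tpm1, both at 0.97, and Tpm2 with Lmod1 at 0.96. At the low end stood Oxtr (0.53), Acta2 (0.50), Srf (0.47), Mrvi1 (0.39) and Kcnma1 (0.20), and Gja1 ran the other way (-0.43). Without the 2 arrays farthest from the median, Kcnma1 was at -0.0094 and Gja1 at -0.22.

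The 2 actins did not run together. Acta2 went with Myocd (r = 0.93) and against Kcnma1 (r = -0.66), and Actg2 went with Cnn1 (r = 0.93). Acta2, Srf and Myocd correlated with the level of the 200 brightest probe sets at 0.76, 0.66 and 0.64, and Actg2 at -0.60. With the log2 actin ratio, Cald1, Acta2, Srf and Myocd correlated at 0.72, 0.64, 0.59 and 0.57. Kcnma1, Actg2 and Myl9 ran against that ratio, at -0.65, -0.59 and -0.54. The part of these array properties in the pairing was not tested. By role, the median r was 0.73 among the dense body genes, 0.69 among the thin filament genes, 0.62 among the myosin genes and 0.34 among the channel and store genes, and the pair Myocd and Srf had 0.80.

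**Figure D5:**
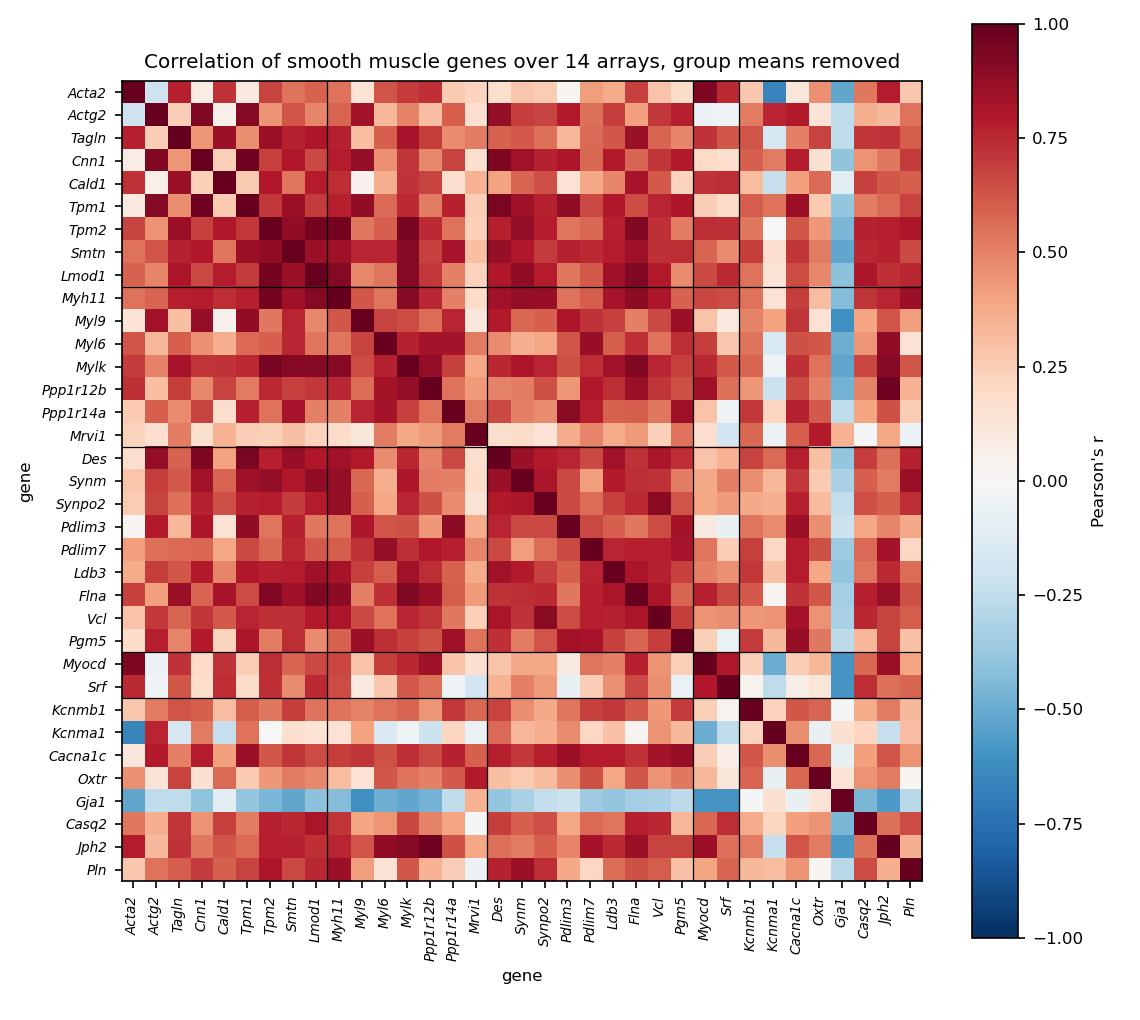
Pearson correlation of every pair of the 35 genes over 14 arrays after removing the group means, in the same blocks by role, from -1 (blue) to 1 (red). Most of the square is red (median 0.59); the Gja1 row is mostly blue, the Kcnma1 row is mixed (from -0.66 with Acta2 to 0.76 with Actg2), and Acta2 and Myocd are red with each other (0.93) but pale with Actg2 and Cnn1.

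Each gene was also set against the mean of the other 34 genes on the same array. That mean is subtracted in full, so a gene that follows it weakly gains a movement of the opposite sign. On this relative scale, Oxtr and Cacna1c were higher in all treated than in all saline mutants, by 1.19 and 0.58. Acta2, Tpm2 and Tagln were lower in all of them, by -0.66, -0.54 and -0.32. The share of all probe sets without overlap was not computed on this relative scale. On plain signals it was 10.3% in this comparison. The second Cacna1c probe set did not share the plain difference of the first. These are ratios within an array and show unequal change only. After quantile normalization the plain differences of Acta2 and Tagln in the mutants turned in direction, and that of Tpm2 was near 0.

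Of the other genes of the pathway, taken from lists of further contraction and calcium-signalling genes (46 measured), dense plaque and cytoskeletal genes (47), regulators of smooth muscle transcription (22) and myometrial receptors with related signalling genes (12, among them the ligand Edn1 and the enzyme Ptgs2), 0 passed the adjusted threshold in any comparison. After folinic acid in the mutants, 29 of the 46 contraction genes were higher (median 0.09), with 2 higher and 3 lower at an unadjusted p under 0.05, which 12.8% of all probe sets reached there. The smallest p were those of Gna11, a G protein alpha subunit that couples receptors to phospholipase C, at -0.75 ± 0.18 (limma adjusted p = 0.133), and Camk2d, a calmodulin-dependent kinase, at 0.48 ± 0.16. Of the dense plaque genes, 31 of 47 were higher (median 0.07; 6 higher and 1 lower at that p), led by Pdlim1 at -1.04 ± 0.33 and the integrin Itga8 at 1.08 ± 0.41. Of the regulators, 13 of 22 were higher (median 0.15), with Mrtfb, a coactivator of Srf, at -0.29 ± 0.15 and Elk3 at 0.42 ± 0.22. Of the receptor and signalling genes, 9 of 12 were lower (median -0.34), with the estrogen receptor Esr1 at -0.31 ± 0.12 and the prostaglandin receptor Ptger2 at -0.87 ± 0.32.

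After folinic acid in the wild type, 35 of the 46 contraction genes were lower (median -0.09), with non-muscle myosin Myh9 at -0.56 ± 0.21 and the connexin Gjc1 at -0.42 ± 0.19. The dense plaque genes were lower in 31 of 47 cases (median -0.02), with Sgce at -0.58 ± 0.26 and Pdlim5 at -0.28 ± 0.16. The regulators were evenly split, 11 and 11, with Hey1 at 0.61 ± 0.26 and Tcf21 at -0.37 ± 0.22, and so were the receptor and signalling genes, 6 and 6, with the peptide ligand endothelin-1 (Edn1) at 0.35 ± 0.26 and the relaxin receptor Rxfp1 at 0.33 ± 0.22. Between genotypes under saline, 28 of the 46 contraction genes were lower in the mutants (median -0.05), with Gucy1a1, a subunit of the nitric oxide receptor, at -0.79 ± 0.27 and the calcium channel subunit Cacnb2 at -0.61 ± 0.27. There, 27 of the 47 dense plaque genes were lower (median -0.05), with Actn4 at -0.32 ± 0.14 and dystrophin (Dmd) at -0.44 ± 0.24, and 16 of the 22 regulators (median -0.09), with Hey1 at 0.72 ± 0.26 and Mrtfb at 0.30 ± 0.15. The receptor and signalling genes were higher in 8 of 12 cases (median 0.18), with Ptger2 at 0.68 ± 0.32 and Esr1 at 0.23 ± 0.12.

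Under folinic acid, 32 of the 46 contraction genes were higher in the mutants (median 0.10), with the cation channel Trpc4 at 0.62 ± 0.24 and Gna11 at -0.45 ± 0.18, and 31 of the 47 dense plaque genes (median 0.05), with Filip1l at 0.62 ± 0.23 and Itga8 at 0.78 ± 0.41. The regulators were higher in 14 of 22 cases (median 0.08), with Klf4 at 0.55 ± 0.22 and Mef2a at -0.39 ± 0.23, and the receptor and signalling genes in 4 of 12 (median -0.02), with Ptger2 at -0.47 ± 0.32 and the prostaglandin receptor Ptgfr at -0.42 ± 0.35. In the interaction, Gna11 was at -0.64 ± 0.25, Abcc9 at 0.71 ± 0.30, Filip1l at 0.95 ± 0.33, Fhl2 at 0.60 ± 0.29, Hey1 at -0.93 ± 0.37, Mrtfb at -0.43 ± 0.21, Ptger2 at -1.15 ± 0.46 and Agtr1a at 1.12 ± 0.58. Of the receptor and signalling list, 10 of 12 genes had a negative interaction, none past the adjusted threshold. The share over all genes is given above.

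Averaged over injections, the genotype differences with the smallest p in each list were those of Trpc4 (0.37 ± 0.17) and Gucy1a1 (-0.40 ± 0.19), Actn4 (-0.24 ± 0.10) and Nexn (-0.30 ± 0.21), Klf4 (0.32 ± 0.16) and Tgfb1 (-0.24 ± 0.16), and Ptgir (0.43 ± 0.22) and Edn1 (0.30 ± 0.18). Averaged over genotypes, those of folinic acid were Myh9 (-0.58 ± 0.15, limma adjusted p = 0.153) and Gna11 (-0.43 ± 0.13), Pdlim1 (-0.63 ± 0.23) and Pxn (0.23 ± 0.10), Notch2 (-0.19 ± 0.10) and Elk3 (0.25 ± 0.16), and Esr1 (-0.19 ± 0.08) and Rxfp1 (0.34 ± 0.16). None of these passed.

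Outside the list, the 8 genes closest to the mean of the 35 genes over the 14 arrays, group means removed, were Pnck (r = 0.95), Tns1 (0.95), Cnn2 (0.93), Bdh1 (0.93), Ptgis (0.92), Slmap (0.92), Tspan2 (0.92) and Syndig1 (0.92). Tns1 is a tensin of focal adhesions, Cnn2 a relative of calponin and Ptgis the prostacyclin synthase. The 4 farthest were Shcbp1 (-0.86), Mtf2 (-0.85), Ttf2 (-0.85) and Fbxo42 (-0.84). Of the dense plaque list, 44.7% of genes were above 0.5 (median r 0.46), of the contraction list 23.9% (median 0.20) and of all genes 10.2%. Actn1 (0.89), Csrp1 (0.85), Cavin1 (0.81) and the regulator Gata6 (0.91) were the genes of these 4 lists above 0.8.

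Markers of other cells were set beside the same mean. The 10 mesothelial markers, of the covering of the uterus, had a median r of 0.57 with it, against 0.21 for 10 pericyte markers, -0.16 for 20 stromal, -0.02 for 17 epithelial, -0.15 for 14 endothelial and -0.24 for 14 leukocyte markers. The mesothelial markers of the whole list were all measured, with summed signals from 13626 to 22006 in wild-type saline, 12274 to 15489 in wild-type folinic acid, 13504 to 15797 in mutant saline and 7693 to 17003 in mutant folinic acid samples. The summed stromal markers were 184489 to 200841 with folinic acid against 213612 to 236260 with saline in the wild type, and 191426 to 209813 against 207187 to 249636 in the mutants. These linear sums were thus clear of each other in the wild type and overlapped in the mutants. As the mean log2 deviation of the same 20 markers, the wild-type groups overlapped. That mean was -0.07 to 0.25 with saline and -0.12 to -0.01 with folinic acid. Of all probe sets, 4.96% had groups that did not overlap in that comparison. Summed leukocyte markers were 86964 in mutant folinic acid replicate 1 and 15189 to 28338 in the other 3 treated mutants, against 15107 to 26835 in mutant saline and 17160 to 41872 in wild-type saline samples. The part of these cells in the smooth muscle values was not tested.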

How the data were processed

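Total RNA of 14 whole uteri was hybridised to one-colour Affymetrix arrays after one-cycle biotin labelling. The authors deposited an intensity for each probe set on a linear scale, computed with MAS5 per the submitters' processing notes; its version is not given in the sources used here. With 2% trimmed from both ends, the mean of an array was 500.002 to 500.003, which shows a scaling of whole arrays to a common target. Such scaling does not equalise the spread of bright signals between arrays. Precision is limited by the number of arrays, and detection calls were not used here.

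From 45101 probe sets, 64 controls were removed. The log2 of the signal was taken after setting values under 1 (0.505% of them) to 1. Probe sets with a mean at or above the median (a signal of 134) were kept. limma 3.58.1 in R 4.3.3 fitted 4 group means with a variance trend (10 residual and 5.04 prior degrees of freedom), and 7 contrasts were tested two-sided over the 22519 probe sets kept. The procedure was tested on simulated data. Correlations were computed on log2 values with the group means removed, over 14 arrays, as descriptions without p-values.

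The 35 genes, the pathway and cell marker lists and the tests were chosen with earlier results of these data known. Values on every array are given for 20 genes that stand for a role and for the 3 with the smallest p in each comparison, and of each pathway list the 2 with the smallest p are named; Ldb3 was added after its values were seen. The fits were repeated with quantile normalization, with 16 added before the logarithm, no filter, the upper 35 percent, 1 probe set per gene, other variance models, array weights, only the groups compared, the replicate number as a block, and each array left out. A covariate for the actin ratio, one for the level of the 200 brightest probe sets, and leaving out 2 arrays together were chosen after seeing the data.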

Additional observations from a re-analysis of the deposited data

Results flagged for a closer look

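In the 2 groups of 4 samples, wild-type saline and mutant folinic acid, the highest or lowest value was set against the rest. This was done for each of the 35 genes and for their mean, 72 checks in all. A single check flags about 1 case in 20 by chance, and 2 were marked. The genes vary together over the same arrays, so the checks are not independent. Acta2 in mutant folinic acid replicate 2 had a signal of 48921.8, above the other 3 samples of its group at 32655.5 to 34770.6. The same array had 34 of the 35 smooth muscle genes above their own mean. Without it, the folinic acid difference of Acta2 in the mutants had a limma adjusted p of 0.0663. Ppp1r14a in mutant folinic acid replicate 3 had a signal of 1069.4, below the other 3 at 2188.26 to 2388.19.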

How the results depend on the processing

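Over the 26 or 27 settings tried per comparison, the count of called genes among the 35 stayed at 0, except that array weights called 1, Acta2, for folinic acid averaged over genotypes (-0.47, limma adjusted p = 0.0418); the cause was not tested. Over all probe sets, array weights called 245 in that comparison and 103 for folinic acid in the mutants. Values of single genes changed sign in 4.35% (genotype under folinic acid) to 13.5% (interaction) of the refits. Refits that changed only the variance model, or left out an array outside the groups compared, could not move a difference. They are counted in these shares. Their number differs between comparisons, so the shares cannot be set against each other. The 3 or 4 arrays a group limit the precision. Leaving out mutant folinic acid replicate 2 gave the smallest adjusted p among the 35 for folinic acid in the mutants, 0.0562 for Myocd at -1.16.

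The labels give the groups the same replicate numbers but do not say that a number marks a shared litter or day. Deviations of 19 same-numbered pairs correlated at a median of 0.01, against -0.02 for 54 other pairs, so the numbers were not taken as a pairing. With a replicate block, 0 of the 35 genes were called in each comparison, and 4 rather than 6 had an unadjusted p under 0.05 for folinic acid in the mutants.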

Other observations

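Actc1, the cardiac actin, dim here at 106 to 248, followed the mean of the 35 smooth muscle genes at r = 0.86 over 14 arrays, while the skeletal actin Acta1, at 624 to 3074, followed it at 0.24. Among the mesothelial markers, Bnc1 (0.70), Lrrn4 (0.66) and Msln (0.60) ran with it and Wt1 (0.18) and Krt19 (-0.32) did not, and Krt19 is shared with the epithelium. Of the caveola and dense plaque genes, Tln1 (0.75), Zyx (0.70) and Cavin2 (0.73) were high, and Cav2 (-0.62) and Fblim1 (-0.53) ran against it. Relative to the other 34 genes on its array, Tpm2 was higher in all 3 saline mutants than in all 4 saline wild-type samples, by 0.29. Its plain signals overlapped between these groups. The share of all probe sets without overlap was not computed on the relative scale, and on plain signals it was 4.42%.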
